A study of Arabidopsis thaliana with 11 samples.

Results

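RNA was compared between Arabidopsis thaliana seedlings of a line named MI12, in which an artificial miRNA lowers PTB1 (At3g01150) and PTB2 (At5g53180), and wild-type (WT) seedlings of the same ecotype, Columbia. Members were chosen by genotype label, which gave 4 of the 11 samples of the series, 2 of MI12 and 2 of WT. The deposited table holds 1 value per gene and genotype, so these samples stand behind 2 of its 6 columns. There is therefore no spread between samples, and no difference carries a test or p-value. All seedlings were 11 days old and were grown in continuous light on Murashige and Skoog medium with sucrose, and total RNA of whole seedlings went into TruSeq libraries. The other columns, used only as levels side by side, are MI3, with an artificial miRNA against PTB3 (At1g43190), and OE1, OE2 and OE3, which overexpress PTB1, PTB2 and PTB3. MI3 has 1 sample and the others have 2. Both MI12 samples carry the same line number, so the knockdown rests on 1 line. The sources used here name neither the promoter nor the precursor that carries the artificial miRNA. Nothing in the labels says that samples of a genotype came from separate cultures, and the second WT sample is titled R2 but described as R3.

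Polypyrimidine tract-binding proteins attach to runs of pyrimidines in RNA and change which splice sites are used. In plants, PTB1 and PTB2 are close relatives whose own transcripts are spliced into unproductive forms that limit their level, and PTB3 is the more distant member of the family. The series asks how raised or lowered PTB changes the transcriptome, with splicing as its main interest. The values here are totals per gene, so a change in splicing that leaves the total alone is not visible. Plant miRNAs are cut from hairpin precursors and pair almost fully with their targets, and artificial miRNAs replace the mature strand of a natural precursor, often that of MIR319a.

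The miRNA sequences are shown because the annotated MIR319A locus had the largest difference from WT of any gene compared. The natural miR319 family shares its seed, bases 2 to 8, given in capitals.
miR319a: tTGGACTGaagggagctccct
miR319b: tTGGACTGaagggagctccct
miR319c: tTGGACTGaagggagctcctt
In the precursor of MIR319a, at chr4:12352956-12353131 on the plus strand of the TAIR10.1 RefSeq genome, the mature arm is in capitals.
MIR319a precursor: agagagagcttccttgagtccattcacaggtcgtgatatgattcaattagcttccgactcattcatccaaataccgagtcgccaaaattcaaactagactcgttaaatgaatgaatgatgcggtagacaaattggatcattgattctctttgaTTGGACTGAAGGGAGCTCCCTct
Natural miR319 targets TCP genes, which restrain cell division in leaves, and it can pair with MYB33 and MYB65, regulators of gibberellin responses that are better known as miR159 targets. For TCP4 (chr3:5063300-5063320, plus strand), TCP2 (chr4:10163402-10163422, minus strand) and MYB33 (chr5:1839578-1839598, plus strand) the stretch of the gene closest to the complement of miR319a lies in a coding exon, and bases that depart from that complement are in capitals.
TCP4 site: GAggGgTCcccttcagtccaG
TCP2 site: CAggGgGAcccttcagtccaa
MYB33 site: CTggagctcccttcaTtccaa
These stretches hold 6, 5 and 3 departures, and the MYB65 stretch has the same letters as that of MYB33.

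RPKM scales reads to gene length and to library depth (per kilobase, per mega-read), so levels can be compared between genes. Each difference below is MI12 minus WT on the log2(RPKM + 1) scale, which understates the change of low genes. Of 33602 genes, 19669 reached 1 RPKM in 2 or more of the 6 columns and were compared, and a difference of at least 1, that is 2-fold, in either direction was counted. Judged by the spacing of low values, depth was 93.6 mega-reads in WT and 95.1 in MI12, against 46.5 in MI3 and 79.6 to 96.1 in the overexpressors. Intervals given with ratios are 95% exact counting intervals from reads recovered at these depths, and so are approximate. They cover counting error only and say nothing of the spread between plants.

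The targeted genes come first, as the check of the labels. PTB1 was at 9.46 RPKM in WT against 2.54 in MI12, a ratio of 0.269 with an interval of 0.241 to 0.3. Its levels in the lines that leave PTB1 untargeted were 7.70 in MI3, 6.49 in OE2 and 9.42 in OE3. PTB2 was at 9.03 RPKM in WT against 4.01 in MI12, a ratio of 0.444 with an interval of 0.410 to 0.481, and at 8.04 in MI3, 5.74 in OE1 and 8.23 in OE3. MI12 thus had the lowest value of all 6 columns for both genes, and the retained share was larger for PTB2, at 0.444 against 0.269. Both intervals cover counting error only, so whether the 2 shares differ beyond the spread between plants was not tested. The difference of PTB2, -1.001, lay on the 2-fold limit and was smaller than 2-fold under 3 other settings, at -0.98 with quantile normalization, -0.97 without organelle and ribosomal RNA genes and -0.87 against the median of the other 4 lines. PTB3, which the artificial miRNA does not name, was at 19.5 RPKM in WT against 18.4 in MI12.

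Most natural miR319 targets were near their WT level in MI12, where MIR319A stood at 316 RPKM. MIR319A stood at 261 in MI3 and at 0 to 0.315 in the other 4 columns. Reads at this locus cannot tell the natural precursor from a transgene built in the same backbone, and which of them they came from was not tested. MIR319B, at 0.807 RPKM in WT against 0.365 in MI12, and MIR319C, at 0.269 and 0.317, were too low to be compared. Of the 7 targets, 0 were 2-fold apart, where 0.503% of all genes compared were, and their median difference was -0.03, against -0.007 over all genes. TCP4 was at 14.4 RPKM in WT, at 13.1 in MI12 and 8.77 in MI3. TCP10 was at 23.4, 22.9 and 10.9 in the same columns, so that both genes were close to WT in MI12 and lower in MI3. TCP2 was at 11.2 in WT, 10.7 in MI12 and 9.91 in MI3, TCP3 at 3.93, 3.36 and 2.05, and TCP24 at 13.1, 13.5 and 12.0. MI3 was the lowest of the 6 columns for all of these TCP genes. MYB33 was the exception in MI12, with 10.0 RPKM against 5.76 in WT and 6.55 to 7.34 in the other lines, a ratio of 1.74 with an interval of 1.63 to 1.85. MYB65 was at 1.92 RPKM in MI12 and 1.64 in WT. Of the 8 genes of the miRNA machinery, among them DCL1, which cuts the precursors, and AGO1, which carries the mature strand, all lay within 0.153 of WT.

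Few genes differed from WT. In MI12, 46 genes (0.234%) stood 2-fold or more above WT and 53 (0.269%) 2-fold or more below, while 80.8% of the genes lay within 0.25 and 96.0% within 0.5 of WT on the log2 scale. The counts depend on the pseudocount, since 0.1 in place of 1 gave 104 higher and 119 lower. Of the 46 higher genes, MI12 had the highest value of the 6 columns for 33, and of the 53 lower genes it had the lowest for 34. Over all genes compared, MI12 was highest for 12.2% and lowest for 14.4%, and these shares are not comparable with the chosen genes, for which the direction was already set. For 17 of the higher genes WT was the lowest column, and for 17 of the lower genes WT was the highest. These 34 genes were thus on the same side of WT in all 5 transgenic lines. Over all genes compared, WT was lowest for 9.87% and highest for 10.6%. The chosen genes already had WT far below or above MI12, so these shares too are not comparable with them. The gene at the limit above was LHCB1.4, with a difference of 1.00, and PER1 lay just inside it at 0.996. Below, PDX2 passed with -1.004 and HBP1 did not, with -0.992.

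**Figure D1:**
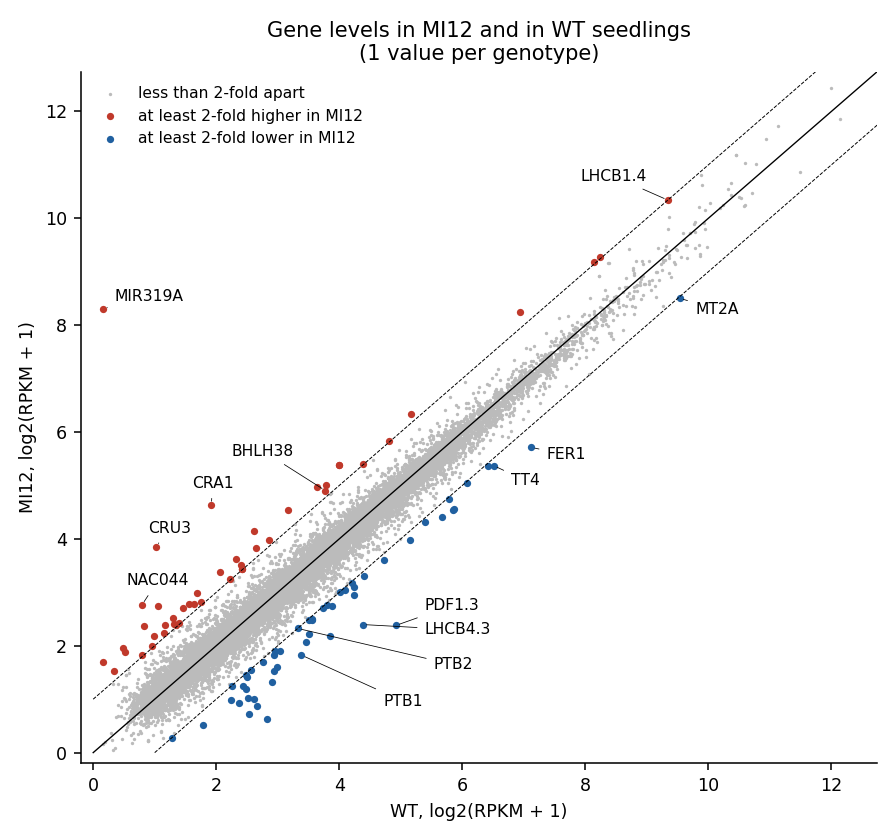
Level of each of the 19669 genes in WT (horizontal axis) and MI12 (vertical axis), both as log2(RPKM + 1), with 1 value per genotype and no error. The solid line marks equal levels and the dashed lines 2-fold differences; 46 genes lie on or above the upper one and 53 on or below the lower one, with MIR319A far from all others.

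The gene groups below are lists of known pathways and cell type markers, described by counts and medians. Each count is to be read beside the shares over all genes compared, 0.234% higher and 0.269% lower, and each median beside -0.007. Counts above or below WT by any amount stand beside 9527 genes above and 10132 below, of 19669. The lists were chosen with earlier results of these data known. The plot of list members shows that the small heat shock proteins, ferritins and defensins had the lowest medians, and the seed storage proteins, chloroplast-encoded genes and antenna proteins the highest. The seed storage median rests on 4 of 14 genes. Of these, OLEO1 and OLEO2 reached 1 RPKM only in MI12 and OE1, so that median is no support for a difference of the list.

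**Figure D2:**
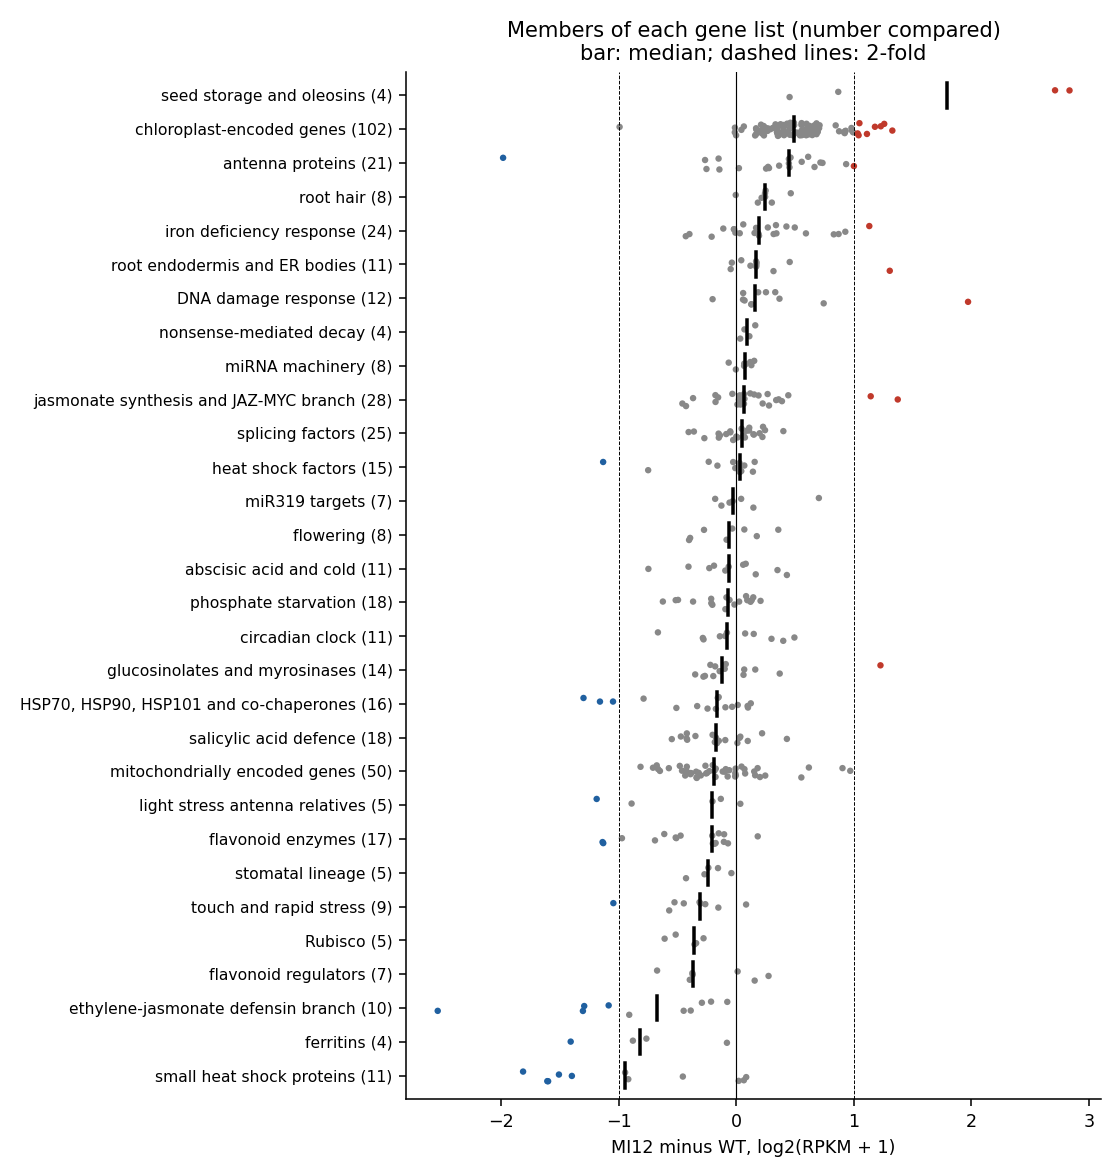
Difference between MI12 and WT, on the log2(RPKM + 1) scale, of every compared member of 30 gene lists, with the number compared after each name. Each point is a gene, red at 2-fold higher and blue at 2-fold lower, and the bar is the median of the list, from -0.945 for small heat shock proteins to 1.79 for seed storage proteins and oleosins. That last median rests on 4 genes, of which OLEO1 and OLEO2 passed the filter only through MI12 and OE1.

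Several heat shock protein genes, 8 of 27 compared in both lists below, were at least 2-fold lower in MI12 than in WT. Small heat shock proteins hold unfolded proteins in solution, and HSP70, HSP90 and HSP101 refold or disaggregate them. Of 15 small heat shock protein genes, 11 could be compared, 5 were at least 2-fold lower, where 0.269% of all genes were, 0 were higher, and the median was -0.945. HSP17.6II was at 4.78 RPKM in WT against 0.646 in MI12, a ratio of 0.135 with an interval of 0.1 to 0.18. HSP17.4 was at 6.54 and 1.49, and HSP17.6A, next to HSP17.6II on chromosome 5, at 4.74 and 1.02. AT1G53540 and AT1G07400, both annotated as HSP20-like chaperones, were at 5.12 and 6.64 RPKM in WT and 1.01 and 1.90 in MI12. HSP18.2, at 2.11 and 2.26, and AT4G21870, at 153 and 162, did not share the difference, nor did AT5G37670. HSP21, HSP22.0, HSP23.6-MITO and AT1G52560 were below the minimum for comparison.

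The larger chaperones included 3 genes that were 2-fold lower, of 16 compared, with a median of -0.165. HSP70 was at 56.4 RPKM in WT against 22.3 in MI12, HSP90.1 at 34.4 and 14.9, and the co-chaperone gene ROF2 at 13.0 and 5.76. The constitutive HSC70-1 was at 883 and 862 RPKM, and the endoplasmic reticulum chaperones BIP1 and BIP2 were 1.07 times WT. Of 15 heat shock factors compared, HSFA3, an activator of heat genes downstream of DREB2A, was 2-fold lower, at 7.16 RPKM in WT, at 2.73 in MI12 and 3.22 to 10.4 in the other lines. HSFA2, which sustains the heat response, was at 2.33 and 0.984 RPKM, a difference of -0.75, while the HSFA1 genes, its activators, lay within 0.033 of WT.

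The heat shock genes also differ between WT and the other lines. WT had the highest value of the 6 columns for 6 of the 11 small heat shock proteins and 6 of the 16 larger chaperones, against 10.6% of all genes. HSP17.4 was at 1.07 RPKM for MI3, 4.75 for OE1, 3.37 for OE2 and 0.739 for OE3, and HSP70 at 33.4, 50.4, 28.6 and 14.5, so that for both MI12 lay inside the range of the other lines. With the 4 remaining lines as control, by their median, the difference of HSP17.4 was -0.37, that of HSP70 -0.46 and that of HSP90.1 -0.08, none of them 2-fold. The promoter of HSP17.4 is shown because its gene family had the lowest median. It covers the 300 bases before the annotated start, chr3:16984868-16985167 on the minus strand, with matches to the heat shock element GAANNTTC or TTCNNGAA, read on both strands, in capitals, and neighbouring matches overlap.
HSP17.4 promoter: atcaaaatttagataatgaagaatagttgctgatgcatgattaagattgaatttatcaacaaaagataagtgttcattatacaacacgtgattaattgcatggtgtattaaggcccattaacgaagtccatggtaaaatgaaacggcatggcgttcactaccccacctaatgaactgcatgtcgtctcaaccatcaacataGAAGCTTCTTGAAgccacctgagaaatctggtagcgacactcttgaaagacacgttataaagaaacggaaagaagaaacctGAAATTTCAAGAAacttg
This window held 4 matches, and 5 of the 11 small heat shock protein windows and 4 of the 16 windows of the larger chaperones held at least 1, against 19.0% of 18964 windows of the same length.

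TT4 and FLS1 of flavonol synthesis were at least 2-fold lower in MI12, and most enzymes of the pathway had their lowest value there. Flavonoids are ultraviolet-absorbing phenols made from phenylalanine, first by chalcone synthase, TT4, and then by chalcone isomerase, TT5, with flavonol synthase, FLS1, closing the flavonol branch. Of 20 enzyme genes, 17 could be compared, 2 were at least 2-fold lower, 16 were below WT, and the median was -0.204. TT4 was at 90.09 RPKM in WT against 40.4 in MI12, against 51.2 in OE1, 72.3 in OE2, 104 in OE3 and 126 in MI3. FLS1 was at 17.82 in WT and 7.59 in MI12, and at 9.24 to 19.0 in the other lines. TT5 was at 13.2 and 6.23, and CHIL, a helper of chalcone isomerase, at 12.8 and 7.55. MI12 had the lowest value of the 6 columns for 13 of the 17 genes, where it had so for 14.4% of all genes.

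The difference was unequal along the pathway. The entry enzymes of phenylpropanoid metabolism were near WT, with PAL1 at 0.879 times WT, C4H at 0.929 and PAL2 at 1.14. The ligase gene 4CL3, which feeds the flavonoid branch, was at 2.55 RPKM in WT against 1.32 in MI12, a ratio of 0.518 with an interval of 0.447 to 0.602. The hydroxylase gene TT7 had a ratio of 0.619 and the glycosyltransferase gene UGT78D2 one of 0.698. The anthocyanin genes DFR, LDOX and GSTF12 were low in both columns, at 2.02, 1.76 and 1.39 RPKM in WT and 1.72, 1.45 and 1.08 in MI12, and higher in MI3, at 9.19, 9.77 and 7.26. F3H, UGT78D3 and UGT79B1 were below the minimum. Of 11 regulators 7 could be compared, and 0 were 2-fold apart. MYB111 and MYB12, activators of the flavonol enzymes, were at 1.63 and 1.05 RPKM in WT and 1.03 and 0.585 in MI12. The light-response factor HY5 was at 6.84 and 4.96, lowest in MI12, and MYB90, an anthocyanin activator, at 0.861 and 0.167.

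The seed storage genes CRU3 and CRA1 were at least 2-fold higher in MI12. Cruciferins and the 2S albumins (SESA) are the proteins that a ripening seed lays down, and oleosins coat its oil bodies. Of 14 genes only 4 passed the filter, 2 of them at least 2-fold higher, so the list is given gene by gene. CRU3 was at 1.03 RPKM in WT against 13.5 in MI12, and at 0.278 for MI3, 6.18 for OE1, 1.81 for OE2 and 2.29 for OE3. CRA1 was at 2.79 and 23.8, with 1.296 to 12.8 in the other lines. For both genes MI12 was highest, and the overexpressors OE1, OE2 and OE3 also lay above WT. OLEO1 was at 0.328 RPKM in WT against 1.42 in MI12, and OLEO2 at 0.572 and 1.15. Both oleosin genes reached 1 RPKM only in MI12 and OE1, and so passed the filter through columns where they were high.

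SESA1 and SESA2 were below the filter because only MI12 reached 1 RPKM. SESA1 was at 0.229 RPKM in WT, at 2.42 in MI12 and 0.060 to 0.429 in the other lines, a ratio of 10.5 with an interval of 6.22 to 19.3. SESA2 was at 0.073 in WT, 1.71 in MI12 and 0.030 to 0.243 elsewhere, a ratio of 23.4 with an interval of 9.76 to 73.5. SESA5 was at 0.052 and 0.533, whereas SESA4 was at 0.110 and 0.092, and SESA3 was at 0 in WT and 0.014 in MI12. Of the regulators that switch these genes on in the embryo, LEC1 was at 0 in both columns, ABI3 was at 0.024 and 0.077, FUS3 at 0.029 and 0.082, and ABI5 at 1.02 and 0.809. Other genes of late seed development differed too. Among the 46 were M17, a late embryogenesis abundant protein, at 1.23 and 3.74, and AT3G02480, annotated to the same family, at 1.62 and 4.403. BGLU19, a beta-glucosidase, was also among them, at 0.260 and 1.89. But BGLU19 reached 1 RPKM only in MI12 and OE1, and so passed the filter only through columns where it was high. In the other direction AT5G62210, annotated as embryo-specific protein 3, was at 4.62 and 1.75. These genes were picked after their values were seen. In whole seedlings, more cells of a type and more RNA per cell cannot be told apart.

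The promoter of CRU3, chr4:14087256-14087555 on the plus strand, is shown for the RY element, the letters CATGCA or TGCATG on either strand, through which seed regulators act; its match is in capitals.
CRU3 promoter: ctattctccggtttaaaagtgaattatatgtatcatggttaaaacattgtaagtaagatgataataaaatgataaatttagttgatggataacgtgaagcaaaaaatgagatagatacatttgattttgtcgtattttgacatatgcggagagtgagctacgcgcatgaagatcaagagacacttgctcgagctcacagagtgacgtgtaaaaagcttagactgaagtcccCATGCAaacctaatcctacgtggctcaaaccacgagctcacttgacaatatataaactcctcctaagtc
The windows of CRA1, CRU3, OLEO1 and OLEO2 each held the element, against 9.4% of all windows. Only genes that passed the filter were scanned, and OLEO1 and OLEO2 passed it only through MI12 and OE1. The other listed seed genes, SESA4 among them, were not scanned, so the share does not describe the list.

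**Figure D3:**
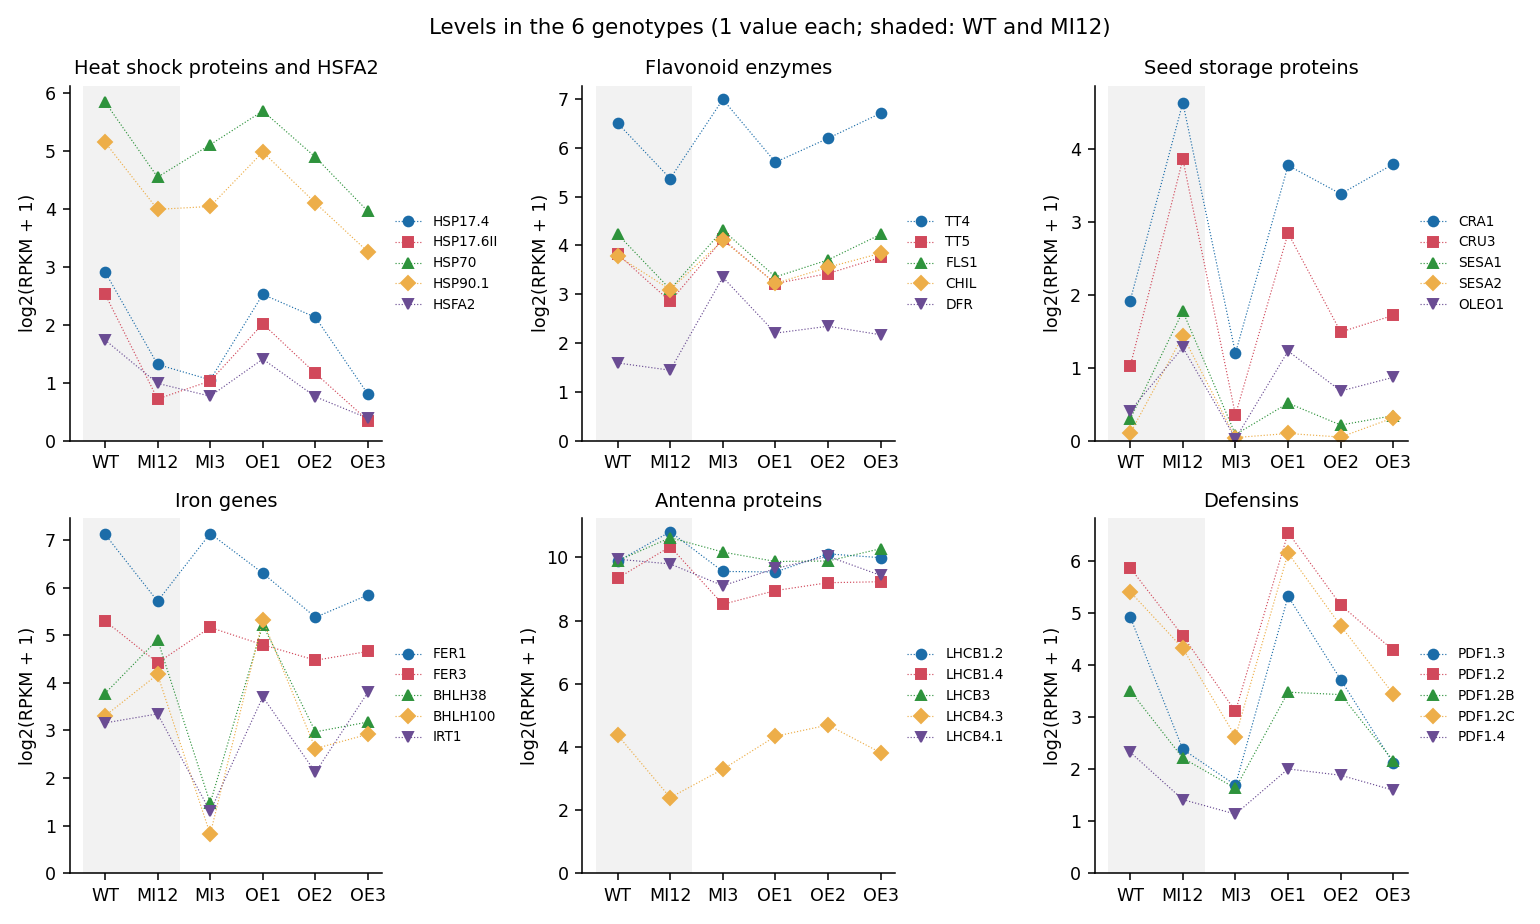
Levels as log2(RPKM + 1) of 5 genes in each of 6 groups, across the 6 genotypes, with 1 value per genotype, no error and dotted lines only to guide the eye. MI12 is lowest for TT4, at 40.4 RPKM, and highest for CRU3, at 13.5, while for HSP70 and PDF1.3 its values, 22.3 and 4.203, lie inside the range of the other lines.

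The iron storage gene FER1 was at least 2-fold lower and the iron-deficiency regulator gene BHLH38 at least 2-fold higher. Ferritins store iron in plastids, and the BHLH38, BHLH39, BHLH100 and BHLH101 factors, partners of the regulator FIT, are induced when iron is short. Of the 4 ferritins 1 was at least 2-fold lower and the median was -0.821. FER1 was at 138 RPKM in WT against 51.4 in MI12, FER3 at 38.4 and 20.4, and FER4 at 23.7 and 13.5, while the seed ferritin FER2 was at 1.32 and 1.19. FER3 and FER4 were lowest in MI12, but FER1 was lower still in OE2, at 40.5, and set beside the median of the 4 lines FER1 differed by -0.38.

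Of 25 genes of the iron-deficiency response, 24 could be compared, 1 was 2-fold higher, 0 were lower, and the median was 0.192. BHLH38 was at 12.7 RPKM in WT against 29.0 in MI12, with 1.78 RPKM for MI3, 36.2 for OE1, 6.84 for OE2 and 8.04 for OE3. BHLH39 was at 10.6 and 21.1, BHLH100 at 8.88 and 17.1, and BHLH101 at 5.06 and 9.78, so that these genes were each close to 2-fold above WT, and all were higher still in OE1. Reads of near-identical genes such as BHLH38 and BHLH39 may have been shared between them in the authors' counting. The uptake genes they are known to act on were nearer WT, with the transporter IRT1 at 7.92 and 9.17 RPKM, the reductase FRO2 at 2.70 and 2.66, and FRU, the annotated symbol of FIT, at 2.81 and 2.53. MT2A, a metal-binding metallothionein, was the most abundant of the lower genes, at 740 RPKM in WT, at 362 in MI12 and 687 to 963 in the other lines. NEET, an iron-sulfur protein, was at 49.9 and 20.3, but at 13.7 to 31.8 in the other lines. These last genes were picked after their values were seen.

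Among antenna genes LHCB1.4 was just 2-fold higher in MI12 and LHCB4.3 was far lower, while most of the others lay above WT by less than 2-fold. The antenna proteins, LHCB of photosystem II and LHCA of photosystem I, bind chlorophyll and are encoded in the nucleus. Of 21 genes 1 was at least 2-fold higher and 1 lower, 16 lay above WT, and the median was 0.448. Their summed level was 20028 RPKM in WT, 28021 in MI12 and 15939 to 20528 in the other lines, and MI12 was the highest column for 14 of the 21. LHCB1.4 was at 647 and 1297 RPKM, LHCB1.2 at 940 and 1797, and LHCB3 at 949 and 1579. LHCA genes were closer, with LHCA1 at 920 and 1185 and LHCA2 at 836 and 850. LHCB4.3, a form of LHCB4 known to accumulate in strong light, was at 19.8 in WT, 4.27 in MI12 and 8.82 to 24.9 in the other lines, while LHCB4.1 was at 984 and 887 and LHCB4.2 at 648 and 888. The LHCB1 genes are near-identical copies, and their single values are uncertain. With quantile normalization the median was 0.22 and LHCB1.4 was at 0.91.

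Several other nuclear genes of photosynthesis did not share this direction, while chloroplast-encoded genes, given below, mostly lay above WT. Of the 5 nuclear Rubisco genes, small subunits and activase, all lay below WT and 0 were 2-fold lower. Their summed level was 11453 RPKM in WT, 8714 in MI12 and 5561 to 14514 elsewhere. The light-stress relatives of the antenna proteins, ELIP1 and ELIP2, were at 4.404 and 2.41 RPKM in WT and 1.37 and 0.839 in MI12, the lowest of the 6 columns. LPA19, an assembly factor of photosystem II, was at 16.0 and 7.28, PnsL4, of the plastid NDH complex, at 25.5 and 11.2, and the rubredoxin gene ENH1 at 54.4 and 25.8, each lowest in MI12. PORA, which makes chlorophyllide in the first light and is then repressed, was at 0.775 RPKM in WT, at 4.19 in MI12 and 1.2 to 1.67 elsewhere. These 4 genes were picked after their values were seen.

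Transcripts encoded in the chloroplast were mostly above WT. Of 133 such genes 102 could be compared, 8 were 2-fold higher, 0 lower, and 98 lay above WT. Their summed level was 1845 RPKM in WT, 3226 in MI12, 1279 in MI3 and 1593 to 2531 in the overexpressors. The genes ATCG00920, ATCG00950, ATCG01180 and ATCG01210 made up 1178 RPKM of this sum in WT, 2163 in MI12 and 581 in MI3. In WT, ATCG00920 and ATCG01210 were both at 297 RPKM, and ATCG00950 and ATCG01180 at 303 and 281. Such near-equal pairs may rest on shared reads, so the sum may count these reads more than once. ATCG00950 and ATCG01180 were both among the 8 genes called higher. Without these 4 the sums were 667 in WT, 1064 in MI12, 698 in MI3 and 809 to 921 in the overexpressors, so that WT was the lowest column and MI12 still the highest. ATCG00350 was at 11.4 RPKM in WT, at 30.2 in MI12 and 10.9 to 20.3 in the other lines, and ATCG00490 at 34.9, 80.2 and 25.5 to 49.8; the annotation used gives these identifiers no name. WT was the lowest column for 63 of the 102, against 9.87% of all genes, and set beside the median of the 4 lines the list median was 0.18 and not 0.488. Mitochondrially encoded genes, with 50 of 146 compared and 0 of them 2-fold apart, had a median of -0.193.

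PDF1.3, PDF1.2, PDF1.2B and PDF1.2C, defensins of the ethylene and jasmonate branch, were at least 2-fold lower in MI12. PDF1.2 and its relatives encode antifungal peptides and are driven by the factors ERF1 and ORA59. Of 11 genes 10 could be compared, 4 were at least 2-fold lower, 0 higher, and the median was -0.678. PDF1.3 was at 29.2 RPKM in WT against 4.203 in MI12, a ratio of 0.144, with PDF1.2B beside it on chromosome 2 at 10.3 and 3.63. PDF1.2 was at 57.1 and 22.5, with PDF1.2C beside it on chromosome 5 at 41.3 and 18.9. Across the other lines PDF1.2 ran from 7.62 in MI3 to 92.0 in OE1, so MI12 lay inside their range, and against their median PDF1.2 differed by -0.22 and PDF1.2C by 0.08, the latter in the opposite direction. ORA59 was at 6.56 and 5.52 RPKM, and ERF1, at 0.927 and 0.484, was below the minimum. The basic chitinase gene HCHIB was at 21.1 and 15.9, and HEL at 107 and 78.2. These defensins are near-identical copies, and single values are uncertain.

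The PDF1.2 promoter, chr5:17907639-17907938 on the minus strand, is shown for the GCC box to which such factors bind, the letters GCCGCC or GGCGGC on either strand, in capitals.
PDF1.2 promoter: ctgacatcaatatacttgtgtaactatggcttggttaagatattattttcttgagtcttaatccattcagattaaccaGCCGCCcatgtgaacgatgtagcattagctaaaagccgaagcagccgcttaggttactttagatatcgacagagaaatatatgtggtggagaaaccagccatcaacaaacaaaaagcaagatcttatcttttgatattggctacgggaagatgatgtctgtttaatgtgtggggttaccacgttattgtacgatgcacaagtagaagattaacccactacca
Of the 10 windows of this list, 3 held the box, those of PDF1.2, PDF1.2B and ORA59, against 2.3% of all windows.

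The jasmonate list had a median near that of all genes. Of 30 genes of synthesis, signalling and response, 28 could be compared, 2 were 2-fold higher, 0 lower, and the median was 0.066. TAT3, a wound-induced aminotransferase, was at 7.96 RPKM in WT against 22.2 in MI12, with 21.4 in OE2 and 3.11 to 3.93 in the others. FAMT, a methyltransferase, was at 2.099 and 5.85, with 1.02 to 2.48 elsewhere. The receptor gene COI1, at 13.0 and 13.7, the factor MYC2, at 18.03 and 18.16, and the repressor JAZ1, at 28.1 and 28.5, were within 0.07 of WT. Of 18 salicylic acid genes compared 0 were 2-fold apart, with a median of -0.168, and PR1 was at 30.0 and 22.2. Of 9 touch and rapid-stress genes compared, PHI-1 was 2-fold lower, at 84.3 and 40.4, but at 4.94 in MI3, 19.2 in OE3, 23.2 in OE1 and 101 in OE2; against the median of these lines it was higher in MI12, by 0.90, and the median of its list changed from -0.312 to 0.22.

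A set of DNA damage genes was slightly above WT around a single large difference. NAC044, a stress factor that holds back cell division and is a target of SOG1, was at 0.733 RPKM in WT against 5.80 in MI12. Its levels were 0.924 (MI3), 2.68 (OE1), 1.08 (OE2) and 1.01 (OE3), so WT was lowest and MI12 highest. Of 13 genes 12 could be compared, 1 was 2-fold higher, and the median was 0.158. Of the 12, 11 lay above WT, where 9527 of all 19669 genes did. SMR7, an inhibitor of the cell cycle that is also a SOG1 target, was at 1.13 and 2.57 RPKM, a ratio of 2.27 with an interval of 1.70 to 3.02. The repair gene PARP2 was at 2.24 and 3.18 and the cyclin gene CYCB1;1 at 2.77 and 3.74, both highest in MI12. SOG1 itself was at 5.64 and 5.92.

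Genes of 2 clusters for triterpene synthesis, picked after their values were seen, were higher in MI12, 4 of the 7 by at least 2-fold. Triterpene clusters are runs of neighbouring, unrelated genes whose enzymes act in the same pathway, and both the marneral and the thalianol cluster are known as root-expressed. The marneral synthase gene MRN1 was at 0.393 RPKM in WT, at 2.89 in MI12 and 0.482 to 1.09 in the other lines, a ratio of 7.36 with an interval of 5.96 to 9.20. Its P450 neighbours CYP705A12 and CYP71A16 were at 1.47 and 1.46 in WT and 4.74 and 3.88 in MI12. The genes on either side were AT5G42570, at 28.8 and 27.8, and AT5G42610, at 0.013 and 0.080. In the thalianol cluster the synthase gene THAS1 was at 6.24 and 14.8, CYP708A2 at 8.71 and 16.0, CYP705A5 at 19.9 and 41.5 and AT5G47980 at 1.88 and 4.197. The flanks AT5G47970, at 3.64 and 3.50, and AT5G48020, at 18.9 and 18.8, were at the WT level. WT had the lowest value of the 6 columns for every gene of both clusters, but the thalianol genes were higher still in MI3, with THAS1 at 31.4, while MRN1 was not, at 0.482.

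Root markers are given beside these genes. The 11 endodermis and ER body genes compared had a median of 0.17 and a summed level of 766 RPKM in WT, 841 in MI12 and 492 to 1952 elsewhere. The 8 root hair genes had a median of 0.245 and sums of 68.4, 84.3 and 44.8 to 227. In the first of these lists AGP30, an arabinogalactan protein of roots, was 2-fold higher, at 4.01 in WT, 11.4 in MI12 and 4.11 to 6.46 elsewhere, and no defining marker of either list was at 0. Leaf and root markers were thus both present, and the part of root tissue in the triterpene difference was not tested. Of 5 stomatal lineage genes compared all were below WT and 0 were 2-fold lower, with the guard cell factor FAMA at 10.6 and 7.62.

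**Figure D4:**
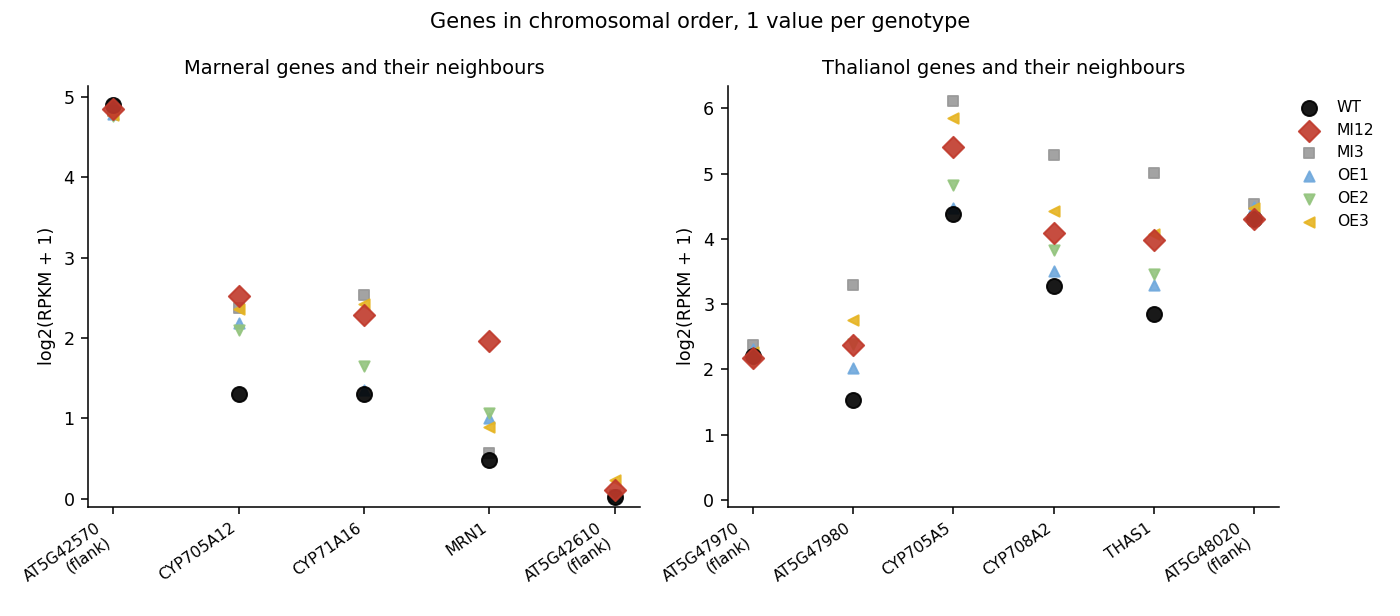
Levels as log2(RPKM + 1) of the marneral (left) and thalianol (right) genes and the genes on either side, in chromosomal order, with 1 marker per genotype and no error. For every cluster gene WT is lowest. At the thalianol genes MI3 and OE3 lie above MI12, as at THAS1 with 31.4 and 15.8 against 14.8 RPKM.

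Among the remaining genes furthest above WT were neighbours that moved together. AT5G46890 and AT5G46900, lipid-transfer-like proteins, were at 14.98 and 14.93 RPKM in WT and 40.6 and 40.7 in MI12, but as near-identical values of neighbouring copies these may rest on shared reads. AT1G13607 and AT1G13608, defensin-like proteins, were at 1.07 and 3.17 in WT and 5.66 and 9.44 in MI12, and higher still in OE1, at 8.33 and 18.01. AT2G18193, annotated as a P-loop hydrolase, was at 5.11 and 16.6, with 6.07 to 12.3 elsewhere. AT2G16005, a lipid-recognition protein, was at 2.21 and 6.97 but at 8.94 in OE1 and 8.57 in OE2. MBP1, a myrosinase-binding protein, was at 1.95 and 5.90, and it was the 1 gene of 14 in the glucosinolate list that was 2-fold apart. AT2G01021, a short uncharacterized gene, was at 121 and 304, with 19.7 to 326 elsewhere.

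Among the remaining genes furthest below WT, several were lower in MI12 than in every other column. The cupin gene AT3G05950 was at 6.10 RPKM in WT, at 0.539 in MI12 and 1.12 to 3.59 elsewhere, a ratio of 0.088 with an interval of 0.064 to 0.118. The peroxidase gene AT5G19890 was at 5.34 and 0.823, with 4.85 to 10.2 elsewhere, and AT1G09500, an NAD(P)-binding protein, at 13.5 and 3.52. AT1G07050, a CCT motif protein, was at 9.98 and 3.18. AT4G25707, annotated as a splicing factor 3A subunit, was at 6.93 and 2.04, against 10.2 in OE1 and 16.1 in OE2. The receptor kinase gene CRK28, picked after its values were seen, was at 6.71 in WT, 2.53 in MI12, 31.2 in OE1 and 21.8 in OE2. For AT4G25707 and CRK28 the knockdown column was thus the lowest and the columns that overexpress PTB1 and PTB2 were the highest. The order was not particular to these genes, since PnsL4, HSFA3, PDX2 and LPA19, among others of the lower genes, had it too. PnsL4 was at 11.2 in MI12, 34.8 in OE1 and 41.1 in OE2, against 25.5 in WT, 20.7 in MI3 and 24.4 in OE3. How many of all genes had this order was not counted. AT5G19890 and AT1G07050 did not have it. AT5G19890 was highest in MI3, at 10.2, and AT1G07050 was at 10.2 in MI3 against 6.11 in OE1.

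Genes of splicing itself are given as levels. Of 26 splicing factors 25 could be compared, and 0 were 2-fold apart, a count that does not set them apart from all genes, of which 0.503% were. They ran from -0.41 for GRP7 to 0.40 for RS40, with a median of 0.046. GRP7, a glycine-rich RNA-binding protein under the clock, was at 808 RPKM in WT against 610 in MI12, the lowest of the 6 columns, and RS40, an arginine- and serine-rich factor, at 21.4 and 28.6, the highest. Both U2AF large subunits, which recognise pyrimidine tracts, were slightly highest in MI12, U2AF65A at 31.9 and 37.5 and AT1G60900 at 15.8 and 18.5. The 4 genes of nonsense-mediated decay, which degrades unproductive splice forms, lay within 0.162 of WT. PIL2, also known as PIF6, a phytochrome-interacting factor of seeds, was at 5.38 and 4.23 RPKM, lowest in MI12 and highest in MI3, at 11.8.

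The flowering repressor gene FLM was at 5.003 RPKM in WT, at 8.71 in MI12 and 3.65 to 5.76 in the other lines, a ratio of 1.74 with an interval of 1.65 to 1.84. FLM partners with SVP, which was lowest in MI12, at 9.12 RPKM against 12.4 in WT and 14.4 to 23.8 elsewhere. FLC, a related repressor, was at 0.249 in WT and 0.033 in MI12, and at 1.74 in OE1 and 1.02 in OE2. The integrators FT, at 0.618 and 1.07, and SOC1, at 9.31 and 9.06, were among the 8 flowering genes compared, of which 0 were 2-fold apart. In the lists of phosphate starvation (18 genes compared), abscisic acid and cold (11) and the circadian clock (11), 0 members were 2-fold apart, with medians of -0.07, -0.064 and -0.079. Among clock genes LHY was at 24.6 and 35.1 RPKM and ELF4 at 31.9 and 19.7, and among phosphate genes SPX3 was at 3.92 and 2.19.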

How the data were processed

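RNA was sequenced from TruSeq libraries of 11-day-old seedlings, and samples were grouped by the genotype in the labels. The values are RPKM as the authors deposited them, in 1 table whose columns are genotypes. Genome TAIR10 was used, per the submitters' processing notes. The sources used here name no aligner, counter or strand setting, and do not say how multiply mapping reads were treated or samples combined, so values of near-identical, overlapping and antisense genes are uncertain. In WT, 1 malformed cell was read as 0. Of the identifiers, 32835 matched the TAIR10.1 RefSeq annotation used for symbols, coordinates and sequences.

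The members and gene lists were chosen with earlier results of these data known. Genes that reached 1 RPKM in 2 or more columns were compared on log2(RPKM + 1). The planned test for values per library could not be used, so differences are descriptions. The genes named are the 3 PTB genes, the 15 furthest above and below WT whose higher value was 5 RPKM or more, list members at least 2-fold from WT, up to 4 members of lists whose median lay at least 0.3 from 0, the miR319 genes and targets, and PIL2 and FLM; other genes are named as examples of their lists or as picked after their values were seen. Symbols are those of the annotation.

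Depth was recovered from single-exon genes of at most 600 bases, of whose low values 82.5% to 85.4% were whole reads to within 0.1, against 20% by spacing alone. Since these shares fall short of nearly all values, no count test was run on recovered reads. Intervals are 95% exact binomial intervals on the same recovered reads, so they share this limit and are approximate. The recovered numbers also rest on exon lengths of the RefSeq annotation, which may differ from those the authors used. Reads here carry no molecular identifiers, so they may share a source molecule. Promoter windows are the 300 bases before the annotated start. Alternatives were other pseudocounts, filters, scalings and control columns, and, added after seeing the data, a floor of 5 RPKM on the higher of both columns. The work was done in Python 3.11.15 with pandas 2.3.3, numpy 2.4.6, matplotlib 3.10.9 and scipy 1.17.1.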

Additional observations from a re-analysis of the deposited data

How the results depend on the processing

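The counts of genes at least 2-fold from WT depended on the pseudocount and the filter. A pseudocount of 0.1 gave 104 higher and 119 lower genes, 0.5 gave 72 higher and 79 lower, and a filter of 5 RPKM in 2 columns gave 29 higher and 41 lower, against 46 and 53. Without a filter 54 were higher and 53 lower, with quantile normalization 48 and 49, and without organelle and ribosomal RNA genes 43 and 46. PTB2 was smaller than 2-fold with quantile normalization (-0.982), without organelle and ribosomal RNA genes (-0.973) and against the median over MI3 and the overexpressors (-0.867). Of the 77 genes tracked singly, 24 changed their call or direction with that control and 53 did not. With it 53 genes of all compared were higher and 67 lower, of which 46 genes were also called against WT, and the direction turned for AT2G16005 (-0.023), PDF1.2C (0.08), PHI-1 (0.899) and the touch list median (0.216). The median of the flavonoid regulators turned to 0.012 with the 5 RPKM filter. The cause was not tested. No paired analysis was possible because the table holds 1 value per genotype; for the same reason the fits that leave out a sample and those with the replicate number could not be run. Depth limits genes under 1 RPKM, and 1 line and 1 value per genotype limit every statement about the knockdown.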
